A study of Solanum lycopersicum with 84 samples.

Results

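Roots of tomato (*Solanum lycopersicum*, cultivar M82) were compared 6 h after plants that had been kept without N were given nitrate again. The +N roots came from plants that received medium containing nitrate, and the −N roots from plants that received fresh N-free medium at the same time. In the N-free medium equimolar chloride salts of potassium and calcium took the place of the nitrate salts, so the contrast is nitrate against chloride. All plants of both treatments were 22 days old when they were moved to N-free hydroponic medium for 4 days, so both groups had been starved of N and differ in the last 6 h. Each treatment had 3 biological replicates, each a pool of roots from 4 plants, whose poly(A) RNA was sequenced. This gave 6 root libraries of the 84 libraries in the series. Of the 34075 genes in the count table, the 21049 genes with enough reads in these 6 libraries were tested, and 13026 were not, of which 8312 had no count in any of them.

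Roots take nitrate up through high-affinity (NRT2 with its partner NRT3) and NPF transporters. Nitrate reductase and nitrite reductase then reduce it to ammonium with electrons from NADH and ferredoxin, and glutamine synthetase and glutamate synthase place the ammonium on carbon skeletons drawn from organic acids. In roots, which do not photosynthesise, the reducing power and the carbon come from imported sucrose through glycolysis and the oxidative pentose phosphate pathway. Nitrate is also a signal, and in Arabidopsis it is read by NIN-like proteins (NLPs) and passed on by LBD, HHO and bZIP transcription factors.

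The libraries held 17472760 to 19234119 counted reads in +N roots and 17587542 to 20417331 in −N roots. The 10 genes with most reads took 5.16% to 5.26% of the reads in +N roots and 3.91% to 4.27% in −N roots. Replicates of a treatment had correlations of log2 CPM of at least 0.989, and the first principal component, with 82.1% of the variance, separated the +N from the −N libraries. Levels are given as CPM (counts scaled to library size and by TMM factors, which were 0.942 to 0.948 in +N roots and 1.05 to 1.07 in −N roots). They are not corrected for transcript length, so they rank genes by reads and not by number of transcripts. Photosynthesis genes used to check the organ label summed to 21.9 to 27.1 CPM in +N roots and 11.5 to 14.4 CPM in −N roots, where +N and −N shoots had 4510 to 4870 CPM and 3150 to 3830 CPM. In roots 3 of the 9 were under 1 CPM in +N and 4 in −N, and their part in the results was not tested.

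Many root genes differed between the treatments, in both directions. At an adjusted p of 0.015 or less and at least a 2-fold change in edgeR's quasi-likelihood test, 1311 genes (6.23% of those tested) were up-regulated and 1343 (6.38%) were down-regulated, 12.6% in all. The split rests on the scaling: with total counts in place of TMM factors, which moved the median log2 fold change of all genes to −0.179, 991 rose and 1886 fell, so that 34.4% of the calls were rises in place of 49.4%. In whole roots a change in the number of cells of a type and a change in RNA per cell cannot be told apart. In 2648 of these 2654 differentially expressed genes (DEGs) every +N library lay on one side of every −N library. Over all genes tested, 6740 (32%) had every +N library above every −N library and 6742 (32%) had every +N library below. Without a fold limit and at an adjusted p of 0.05, 6144 genes (29.2%) were higher and 6053 (28.8%) lower in +N roots. The median log2 fold change was 1.47 for up-regulated and −1.43 for down-regulated genes, against −0.0136 for all genes tested. Large changes were more often rises: 134 genes rose and 91 fell at least 8-fold, and 29 rose and 12 fell at least 64-fold. With total counts these counts were 119 and 110 at 8-fold and 27 and 13 at 64-fold. Among the DEGs, 12 rises and 6 falls had no count in one treatment, so their fitted fold depends on the prior count. The 64-fold rises include 8 neighbouring glutaredoxin genes of this kind, whose separate values are uncertain.

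**Figure D1:**
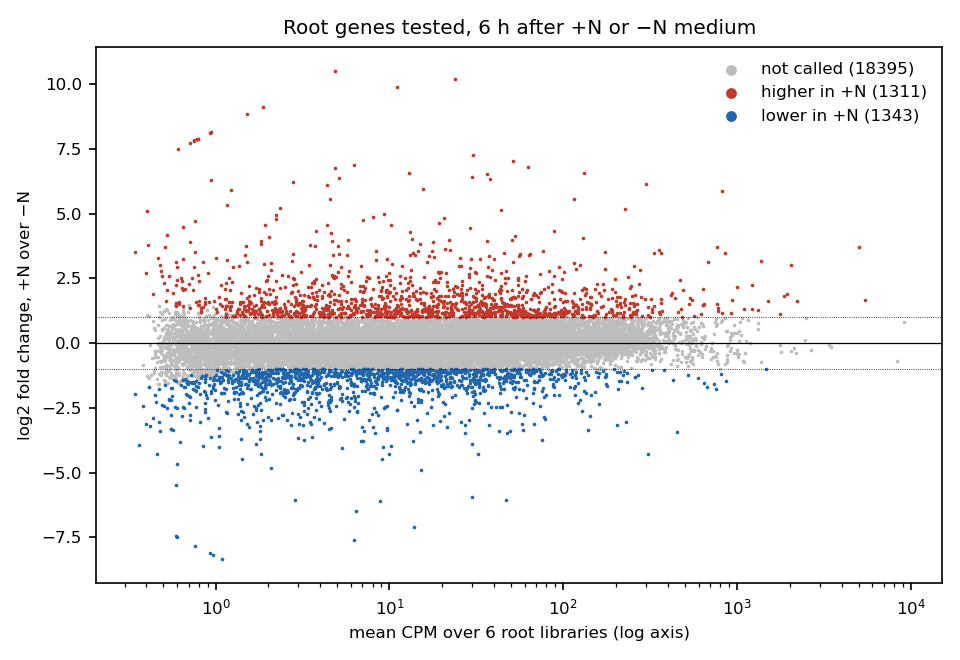
Mean CPM over the 6 root libraries (log axis) against the log2 fold change of +N over −N roots for the 21049 genes tested, with red points for the 1311 up-regulated and blue points for the 1343 down-regulated genes. Dotted lines mark a 2-fold change, and rises outnumber falls among the genes with most reads and among the largest changes. The largest changes include genes with no count in one treatment, whose fitted value depends on the prior count.

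The direction of change differed with the read level of a gene. Among the 2246 genes with a mean of 100 CPM or more, 193 (8.59%) were up-regulated and 72 (3.21%) down-regulated. Among the 6565 genes between 1 and 10 CPM the order was the other way, with 465 (7.08%) up-regulated and 643 (9.79%) down-regulated. The same contrast stood with total counts, at 6.81% up and 4.23% down in the higher class and 5.47% up and 13.3% down in the lower one. Of the 100 genes with most reads, 24 rose and 6 fell. Summed over genes, the up-regulated set gained 105950 CPM and the down-regulated set fell by 35714.9 CPM, both sets having been chosen by their change in these same libraries. These sums rest on the TMM factors, which were lower in +N roots and so raise the CPM of all genes there. They were not computed with total counts, so their balance is not a measure of gain against loss. DEGs came from all chromosomes, with 4.97% to 7.09% of the tested genes of a chromosome up-regulated and 5.60% to 6.77% down-regulated.

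The 5 largest gains in CPM among DEGs were examined next. Glutamate synthase *Solyc03g083440.4*, which makes glutamate from glutamine and 2-oxoglutarate, had 9207, 9157 and 9475 CPM in +N roots, against 626, 704 and 785 CPM in −N roots. Each +N library stood more than 10-fold above each −N library (log2 fold change 3.72, SE 0.067, edgeR adjusted p = 4.70e-15). Sucrose synthase *Solyc07g042550.3*, which cleaves sucrose for respiration and wall synthesis, had 8344, 7839 and 8546 CPM in +N roots, against 2442, 2585 and 2852 CPM in −N roots (log2 fold change 1.65, SE 0.053, edgeR adjusted p = 1.90e-12). A second sucrose synthase, *Solyc12g009300.3*, described as the fruit enzyme, had 3759, 3582 and 3527 CPM in +N roots, against 358, 434 and 568 CPM in −N roots (log2 fold change 3.0, SE 0.12, edgeR adjusted p = 1.58e-11). Pyruvate decarboxylase *Solyc02g077240.4*, the first step of ethanol fermentation, had 3214, 2964 and 2984 CPM in +N roots, against 619.8, 859 and 986 CPM in −N roots (log2 fold change 1.89, SE 0.11, edgeR adjusted p = 1.84e-09). These 4 genes and *Solyc07g017780.4*, matched to an Arabidopsis plasma membrane proton pump, made the 5 largest gains in CPM among DEGs. The proton pump gene had 3264, 3322 and 3452 CPM in +N roots, against 1129, 1071 and 1054 CPM in −N roots, a 3.08-fold rise (edgeR adjusted p = 1.86e-13).

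Not all genes with many reads changed in this way. Extensin-3 *Solyc09g098510.3*, a wall glycoprotein gene and the one with most reads in −N roots, had 6628, 6433 and 6096 CPM in +N roots, against 9470, 10377 and 10948 CPM in −N roots, lower in +N but under the 2-fold limit (log2 fold change −0.68, SE 0.049, edgeR adjusted p = 1.45e-08). *Solyc06g059740.4*, for which no description was held, had the most reads in +N roots, with 11255, 11277 and 12028 CPM in +N roots, against 5958, 6452 and 7377 CPM in −N roots (log2 fold change 0.8, SE 0.060, edgeR adjusted p = 2.12e-08). A further pyruvate decarboxylase, *Solyc10g076510.2*, reached 3281 CPM in +N roots against 1688 CPM in −N roots, a 1.94-fold difference just short of the limit. Without −N replicate 3, its highest −N library, its log2 fold change was 1.14 and it was a DEG. The other 4 of the 10 genes with most reads had no description held and were not DEGs, with log2 fold changes between −0.26 and 0.11.

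The largest losses in reads among DEGs were those of proteases, a peroxidase and 2 further enzymes. The vacuolar-processing enzyme *Solyc08g065610.3*, a cysteine protease of the vacuole, had 70.1, 83.3 and 74.7 CPM in +N roots, against 817, 777 and 894 CPM in −N roots, a 10.9-fold fall (log2 fold change −3.45, SE 0.069, edgeR adjusted p = 1.40e-14). Pre-pro-cysteine proteinase *Solyc04g080960.4* had 360.1, 355 and 313 CPM in +N roots, against 1212, 1150 and 1114 CPM in −N roots (log2 fold change −1.76, SE 0.056, edgeR adjusted p = 1.59e-12). Peroxidase *Solyc02g080530.3* averaged 367 ± 22.1 CPM in +N roots and 1101 ± 39.2 CPM in −N roots (SD, n = 3 each), and 12-oxophytodienoate reductase *Solyc01g103390.3* averaged 457 ± 26.1 CPM in +N roots and 1264 ± 72.97 CPM in −N roots (SD, n = 3 each). S-adenosylmethionine synthetase *Solyc01g101060.4*, which makes the methyl donor of the cell, had 983, 978 and 946 CPM in +N roots, against 1964, 1972 and 1906 CPM in −N roots. Its fall was at the 2-fold limit with a small error (log2 fold change −1.01, SE 0.039, edgeR adjusted p = 1.53e-11), and it was no DEG without −N replicate 2 or without +N replicate 3 (log2 fold changes −0.9975 and −0.9875).

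**Figure D2:**
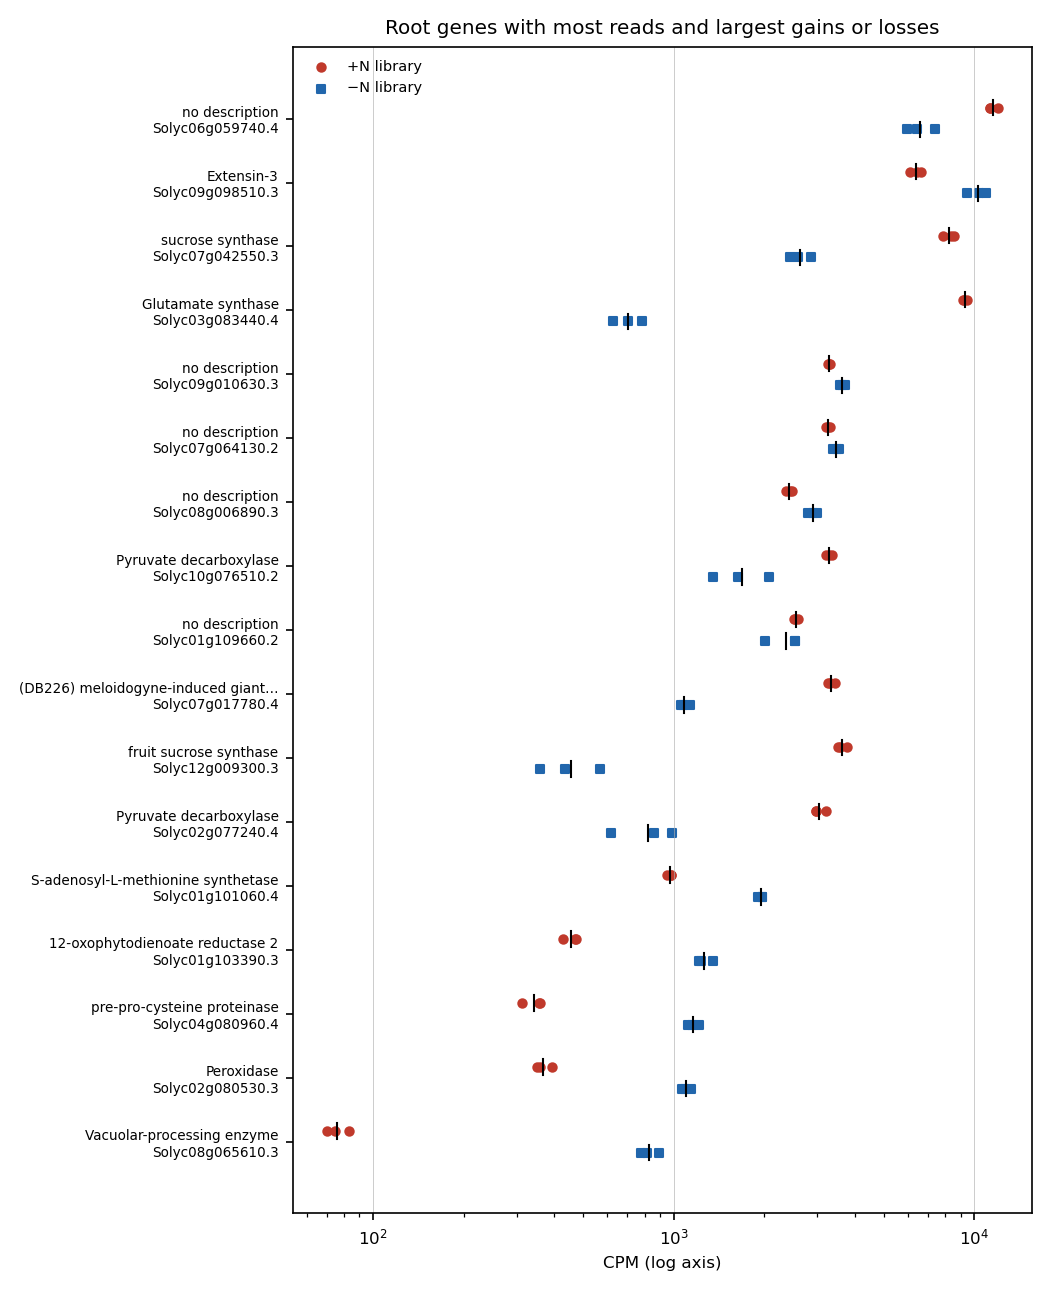
CPM (log axis) in each of the 3 +N (red circles) and 3 −N (blue squares) root libraries for the 10 genes with most reads, the 5 largest gains and the 5 largest losses, with black ticks at the group means. Glutamate synthase shows the widest gap among the genes with most reads, at 9157 to 9475 CPM in +N roots against 626 to 785 CPM in −N roots.

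Several genes were close to silent in one treatment and expressed in the other. Among DEGs with a mean of at least 5 CPM, the largest rise was that of *Solyc03g078620.1*, described as a C2 calcium and lipid-binding domain protein, with 49.2, 44.3 and 48.9 CPM in +N roots, against 0.107, 0 and 0 CPM in −N roots. With 2460 counts in +N and 2 in −N roots the ratio was 1422 (95% interval from counting error, 393.2 to 11750). A second gene with this description, *Solyc04g055150.1*, had 73.3, 67.2 and 76.1 CPM in +N roots, against 0.907, 0.647 and 0.767 CPM in −N roots (log2 fold change 6.54, SE 0.12, edgeR adjusted p = 4.70e-15). The aluminum-activated malate transporter 9 gene *Solyc05g009580.3*, of a family of anion channels, had 21.4, 21.2 and 24.1 CPM in +N roots, against 0, 0.0462 and 0 CPM in −N roots. With 1150 counts in +N and 1 in −N roots the ratio was 1329 (95% interval from counting error, 238.1 to 52550).

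The next rises included a plastid sugar phosphate carrier and a regulator. The glucose-6-phosphate/phosphate translocator *Solyc05g045670.4*, which brings glucose 6-phosphate into plastids, had 83.5, 101 and 121 CPM in +N roots, against 0.587, 0.786 and 0.920 CPM in −N roots, a 132-fold rise (log2 fold change 7.04, SE 0.18, edgeR adjusted p = 1.96e-13). LOB domain-containing protein 38 *Solyc01g107190.3*, whose Arabidopsis relatives repress genes of nitrate uptake and reduction, had 122, 121 and 129 CPM in +N roots, against 1.97, 0.694 and 0.716 CPM in −N roots (log2 fold change 6.8, SE 0.15, edgeR adjusted p = 5.04e-14). Nitrite reductase *Solyc01g108630.3* had 244, 260.4 and 273 CPM in +N roots, against 3.15, 3.10 and 1.89 CPM in −N roots (log2 fold change 6.57, SE 0.11, edgeR adjusted p = 1.27e-15). The other 4 of the 10 largest rises were genes described as unknown proteins. They were *Solyc10g050510.1* (154-fold, 60.1 against 0.375 CPM), *Solyc09g072750.2* (116-fold, 12.4 against 0.0989 CPM), *Solyc01g108710.3* (94.1-fold, 25.7 against 0.265 CPM) and *Solyc03g119180.1* (85.7-fold, 59.3 against 0.696 CPM), each pair giving the +N and then the −N mean.

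The 10 largest falls, chosen in the same way, were as follows. The amino acid transporter *Solyc09g098380.3* had 0.110, 0.0579 and 0 CPM in +N roots, against 12.1, 13.5 and 12.01 CPM in −N roots. With 3 counts in +N and 753 in −N roots it was 217.1-fold lower in +N (95% interval from counting error, 74.01 to 1055). Cytochrome P450 *Solyc08g079300.3* had 0, 0 and 0.608 CPM in +N roots, against 30.1, 25.6 and 26.7 CPM in −N roots (log2 fold change −7.1, SE 0.34, edgeR adjusted p = 1.60e-10), and all of its 10 counts in +N roots came from replicate 3. Without that library the gene stood at 0 in +N and was still called. The major facilitator protein *Solyc04g079510.2* had 0.0552, 0.232 and 0.122 CPM in +N roots, against 12.9, 12.4 and 13.04 CPM in −N roots (log2 fold change −6.49, SE 0.27, edgeR adjusted p = 2.84e-11). The beta-carotene isomerase D27 *Solyc09g065750.3*, which starts strigolactone synthesis, had 0.221, 0.348 and 0.182 CPM in +N roots, against 21.6, 15.3 and 15.5 CPM in −N roots, a 67.7-fold fall (log2 fold change −6.08, SE 0.26, edgeR adjusted p = 5.53e-11).

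Among the rest of the 10 largest falls, a second cytochrome P450, *Solyc10g018150.2*, had 1.93, 1.22 and 0.972 CPM in +N roots, against 101, 90.6 and 84.2 CPM in −N roots (log2 fold change −6.04, SE 0.14, edgeR adjusted p = 5.13e-14). Glycosyltransferase *Solyc03g078500.3* fell 61.8-fold to 0.949 CPM in +N roots, against 58.8 CPM in −N roots, and dirigent protein *Solyc01g059900.4* fell 30.3-fold to 0.972 CPM, against 29.4 CPM. *Solyc03g119590.1*, described as NIMIN2c, a name given to proteins that bind the salicylic acid regulator NPR1, fell 22.4-fold. The urea-proton symporter DUR3 *Solyc08g075570.4*, which takes up urea at low supply, carried by far the most reads of these falls, with 32.7, 27.2 and 29.96 CPM in +N roots, against 589, 569 and 598 CPM in −N roots (log2 fold change −4.29, SE 0.064, edgeR adjusted p = 9.34e-16).

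**Figure D3:**
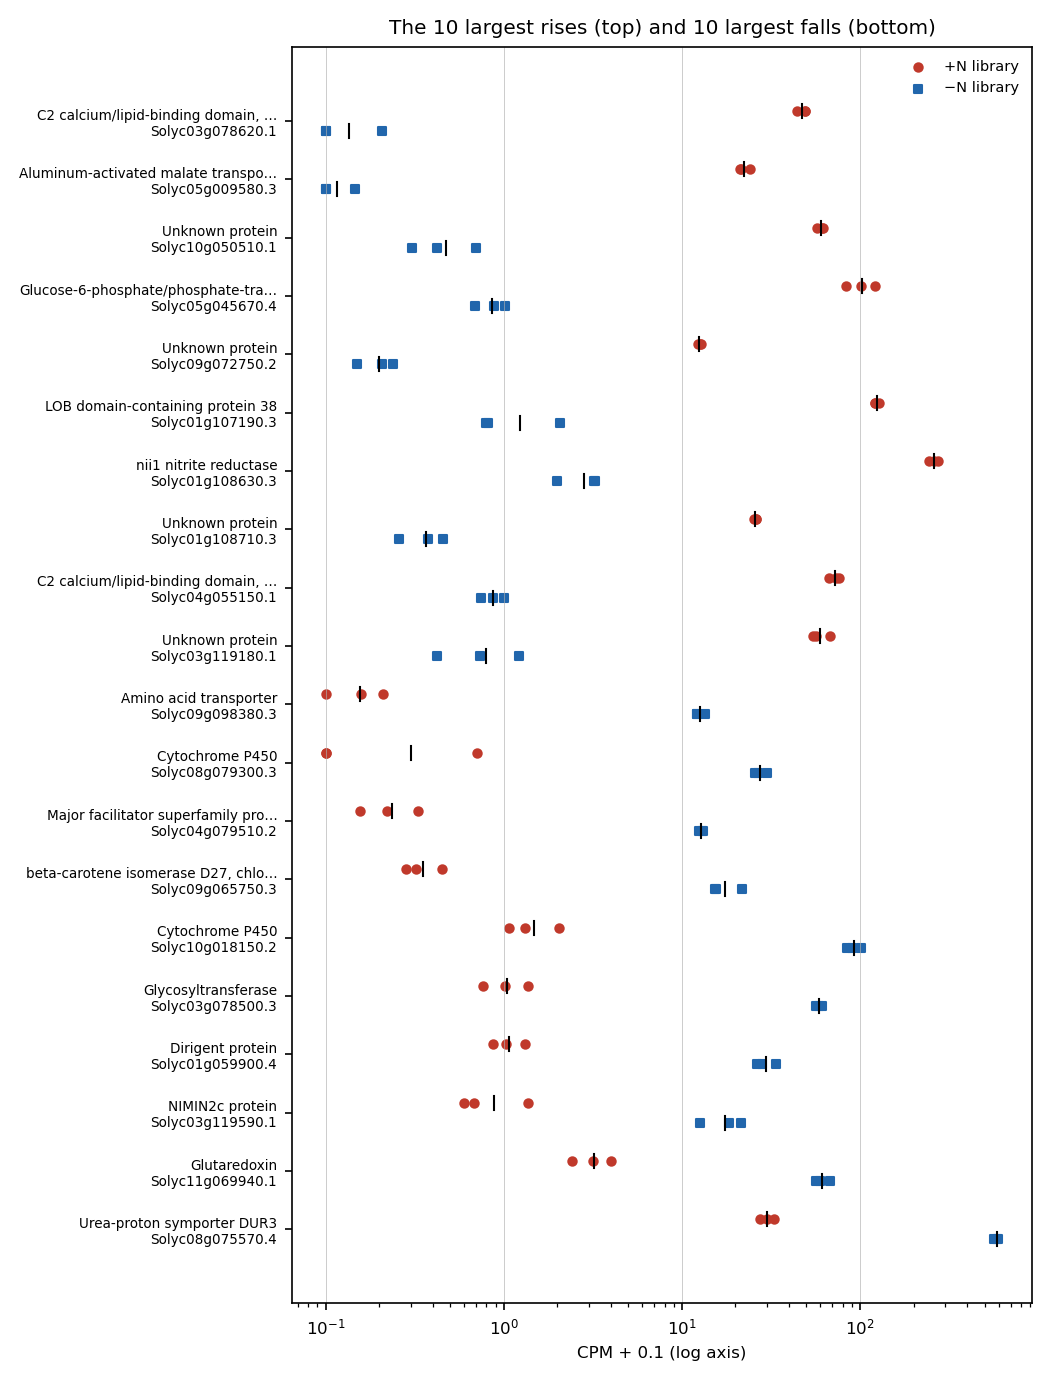
CPM + 0.1 (log axis, so that libraries at 0 can be drawn) in each +N (red circles) and −N (blue squares) root library for the 10 genes that rose most and the 10 that fell most, of DEGs averaging 5 CPM or more, with black ticks at the group means. Only DEGs whose +N and −N libraries did not overlap were eligible, so the separation of the libraries was set by the choice. A gap of more than 100-fold separates the means of the C2 domain gene *Solyc03g078620.1*.

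Gene groups were read from descriptions in the study's supplementary gene lists, which cover 3737 of the genes tested. Of these, 2305 stand in the study's own lists of root DEGs, which were chosen on these same samples, so the counts of called members below are not independent evidence of a group's direction. In all, 2341 of the 3737 (62.6%) were DEGs, and the share of called members in a group reads against that share. Among the 1432 genes described only in lists of histone marks, 1.68% were up-regulated and 0.838% down-regulated. The counts are therefore given as descriptions, without a test of the group.

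Genes of NRT2, NRT3 and nitrate reduction mostly rose, whereas most NPF genes, given below, fell. All 4 NRT2 and NRT3 genes tested, each from the study's root lists, were up-regulated. Of the 14 genes of nitrate and nitrite reduction and their cofactors 11 were up-regulated, and 1 was down-regulated. Summed over the 14 genes, +N roots had 7832, 7993 and 8391 CPM, against 1642, 1642 and 1610 CPM in −N roots. Beside the reductases, 2 genes of electron supply rose at the mRNA level. Ferredoxin *Solyc11g006910.3* had 195, 224 and 256 CPM in +N roots, against 4.64, 4.67 and 5.06 CPM in −N roots (log2 fold change 5.55, SE 0.11, edgeR adjusted p = 1.05e-14). Ferredoxin-NADP reductase *Solyc02g024050.3*, matched to a root form of Arabidopsis, had 1364, 1376 and 1531 CPM in +N roots, against 103, 117 and 106 CPM in −N roots (log2 fold change 3.71, SE 0.062, edgeR adjusted p = 2.19e-15). Uroporphyrinogen-III C-methyltransferase *Solyc01g086650.3*, which makes the siroheme that nitrite reductase carries, had 404, 422 and 493 CPM in +N roots, against 12.3, 12.5 and 11.8 CPM in −N roots (log2 fold change 5.17, SE 0.082, edgeR adjusted p = 1.27e-15). The high-affinity transporter partner NRT3.2 *Solyc03g112100.3* averaged 1139 ± 43.2 CPM in +N roots and 397 ± 40.2 CPM in −N roots (SD, n = 3 each). The member that fell was the molybdenum cofactor sulfurase-like gene *Solyc05g015480.3*, with 6.23, 7.59 and 5.89 CPM in +N roots, against 57.99, 48.4 and 46.9 CPM in −N roots (log2 fold change −2.96, SE 0.11, edgeR adjusted p = 1.09e-11).

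Genes of the pentose phosphate pathway, the source of NADPH in root plastids, rose with them. Of 6 genes tested 5 were up-regulated, and their sum was 2901 to 3064 CPM in +N roots against 537.2 to 574.0 CPM in −N roots. Glucose-6-phosphate dehydrogenase, its entry enzyme, rose in both genes described, *Solyc05g015950.3* with 648, 647 and 702 CPM in +N roots, against 59.3, 61.2 and 60.6 CPM in −N roots (log2 fold change 3.46, SE 0.052, edgeR adjusted p = 9.34e-16) and *Solyc07g045540.4* at a lower level, 15.6-fold. 6-phosphogluconate dehydrogenase *Solyc12g056120.1* averaged 1215 ± 46.1 CPM in +N roots and 140.5 ± 5.43 CPM in −N roots (SD, n = 3 each, 8.64-fold, edgeR adjusted p = 1.27e-15).

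Among the genes of ammonium assimilation listed here, glutamate synthase rose most. The list leaves out glutamine synthetase *Solyc04g014510.3*, which the study names as up-regulated in roots. Of 5 genes tested 3 rose, and chloroplast glutamine synthetase *Solyc01g080280.3* had 256, 252 and 269 CPM in +N roots, against 52.1, 58.2 and 50.7 CPM in −N roots (log2 fold change 2.27, SE 0.059, edgeR adjusted p = 1.89e-13). Glutamate dehydrogenase *Solyc10g078550.4*, which can release or fix ammonium, averaged 780.5 ± 50.4 CPM in +N roots and 190.2 ± 5.85 CPM in −N roots (SD, n = 3 each, 4.10-fold). Asparagine synthetase 1 *Solyc06g007180.3* fell, with 4.41, 6.14 and 4.74 CPM in +N roots, against 34.5, 34.5 and 39.4 CPM in −N roots (log2 fold change −2.82, SE 0.12, edgeR adjusted p = 2.99e-11), while asparagine synthetase *Solyc04g055200.3* had 86.9 CPM in +N roots and 83.997 CPM in −N roots and did not pass the test.

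Genes of some enzymes that supply carbon rose as well. A list of sucrose cleavage and glycolysis genes, drawn up after the values were seen, had 10 up-regulated and 1 down-regulated of 21 tested, and its sum was 21909, 21334 and 22177 CPM in +N roots, against 6229, 6670 and 7222 CPM in −N roots. The 2 sucrose synthases described above made up most of that sum in +N roots. Enolase *Solyc09g009020.3* averaged 2879 ± 108 CPM in +N roots and 817 ± 39.98 CPM in −N roots, triosephosphate isomerase *Solyc04g011510.4* 2283 ± 25.3 CPM in +N roots and 734 ± 83.4 CPM in −N roots, and phosphoglycerate kinase *Solyc07g066600.3* 1857 ± 55.8 CPM in +N roots and 767 ± 65.4 CPM in −N roots (SD, n = 3 each). Their rises were 3.52-fold, 3.11-fold and 2.42-fold, and glyceraldehyde-3-phosphate dehydrogenase *Solyc06g071920.4* rose 5.43-fold (edgeR adjusted p = 4.74e-15). The phosphofructokinase *Solyc07g045160.3* was the member that fell, to 8.74 CPM in +N roots against 37.1 CPM in −N roots. The 10 members described only outside the study's root lists had no call.

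Of 18 tested genes of fermentation or described by low oxygen, in a list also drawn up after the values were seen, 9 rose and 2 fell. The non-symbiotic hemoglobin *Solyc07g008240.3*, of a family that binds oxygen and turns over nitric oxide, had 1964, 1952 and 2147 CPM in +N roots, against 397, 440.5 and 447 CPM in −N roots (log2 fold change 2.24, SE 0.055, edgeR adjusted p = 1.10e-13). Alanine aminotransferase 2 *Solyc03g123610.4*, which joins pyruvate and glutamate metabolism, had 1098, 1023 and 981 CPM in +N roots, against 196, 238 and 303 CPM in −N roots (log2 fold change 2.07, SE 0.11, edgeR adjusted p = 4.51e-10). The hypoxia-responsive family genes *Solyc06g050870.3* and *Solyc01g066720.3* rose 7.23-fold and 3.23-fold, and lactate dehydrogenase *Solyc08g078850.3* rose 2.85-fold (edgeR adjusted p = 3.15e-08). Both falls were genes with alcohol dehydrogenase in their description. Alcohol dehydrogenases act after pyruvate decarboxylase in making ethanol, but the descriptions do not show that either gene acts at this step. *Solyc02g030480.4* had 6.23, 8.75 and 5.23 CPM in +N roots, against 24.9, 23.8 and 24.1 CPM in −N roots (log2 fold change −1.85, SE 0.14, edgeR adjusted p = 1.97e-08), and *Solyc04g074535.1* had 2 counts in +N roots against 53 in −N roots (22.92-fold lower, 95% interval from counting error 6.041 to 194.2). The other 3 genes described as alcohol dehydrogenases had log2 fold changes of −0.86, −0.33 and −0.19 and were not DEGs. None of the 5 so described rose. The list could not include genes without a description, such as *Solyc06g059740.4*, so it does not show how this step as a whole changed. The sum over the 18 genes was 10697, 10414 and 10407 CPM in +N roots, against 2906, 3569 and 4280 CPM in −N roots, so the −N libraries differed among themselves but each lay below each +N library.

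Organic acid metabolism rose in 16 of 24 genes tested and fell in 6. Citrate synthase *Solyc01g073740.4* had 655, 664 and 684 CPM in +N roots, against 181, 174 and 171 CPM in −N roots (log2 fold change 1.93, SE 0.045, edgeR adjusted p = 6.17e-14), and the kinase that activates phosphoenolpyruvate carboxylase, *Solyc06g053620.4*, had 62.2, 68.4 and 63.98 CPM in +N roots, against 10.3, 11.1 and 11.4 CPM in −N roots (log2 fold change 2.56, SE 0.073, edgeR adjusted p = 5.43e-13). Of 5 pyruvate kinase genes 4 rose, the one with most reads, *Solyc04g008740.3*, averaging 1116 ± 10.6 CPM in +N roots and 434 ± 29.8 CPM in −N roots (SD, n = 3 each), and 1 fell. The malate transporter genes were split. *Solyc05g009580.3*, next to silent in −N roots, rose as described above, whereas *Solyc05g009590.3*, the next identifier on chromosome 5 and described as the same kind of transporter, had 3.14, 3.82 and 4.25 CPM in +N roots, against 67.2, 50.96 and 48.6 CPM in −N roots (log2 fold change −3.9, SE 0.15, edgeR adjusted p = 1.04e-11). *Solyc01g096140.3*, also a malate transporter gene, had 3.53, 4.75 and 4.01 CPM in +N roots, against 46.9, 36.3 and 33.6 CPM in −N roots (log2 fold change −3.25, SE 0.15, edgeR adjusted p = 7.96e-11), while a further one, *Solyc03g119640.4*, rose 3.24-fold.

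**Figure D4:**
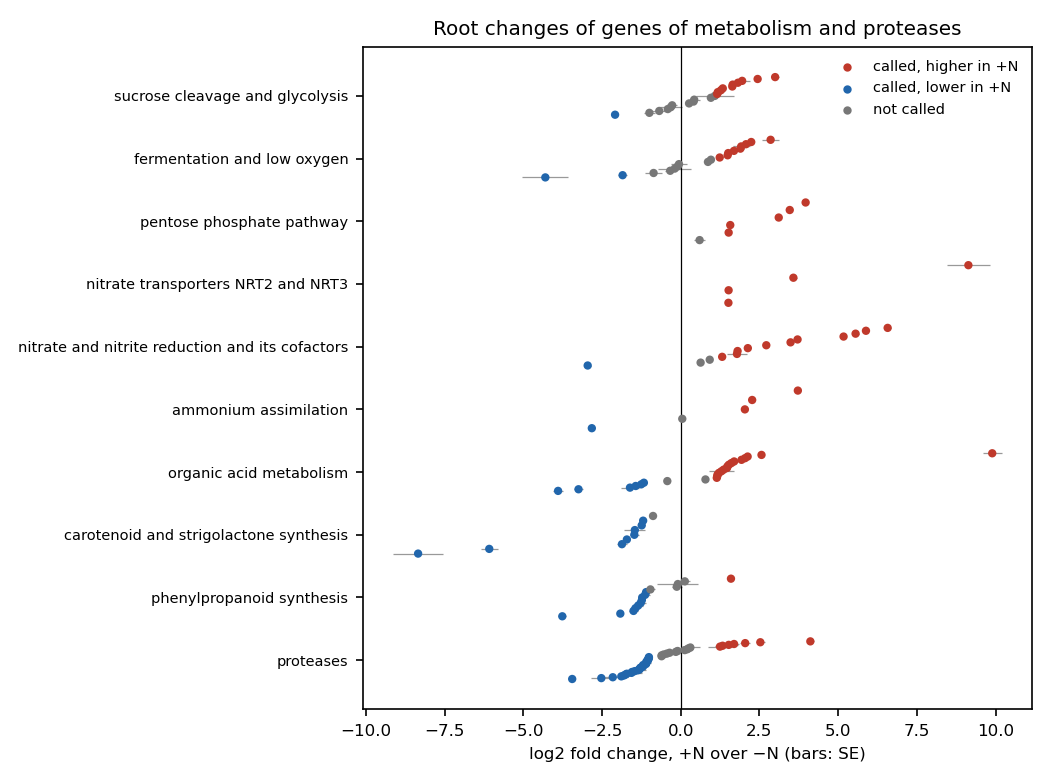
Log2 fold change of +N over −N roots for each tested member of 10 groups of metabolism and proteases, with bars for the SE and colour for the call. In the pentose phosphate pathway 5 of 6 members were up-regulated, whereas 8 of 9 genes of carotenoid and strigolactone synthesis and 26 of 44 protease genes were down-regulated, and points beyond 7.5 include genes with no count in one treatment, whose fitted value depends on the prior count.

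Genes described as NPF transporters mostly went the other way from NRT2. Of 25 tested 18 were down-regulated and 3 up-regulated, with a median log2 fold change of −1.31. Of these 25, 21 stand in the study's root lists, and the other 4 were not DEGs. Summed over the 25 genes, +N roots had 826.1 to 858.8 CPM, against 892.9 to 955.5 CPM in −N roots. The falls were largest in *Solyc08g077170.3*, described as NPF7.3, with 1 count in +N roots against 70 in −N roots (60.55-fold lower, 95% interval from counting error 10.52 to 2425), and in the NPF2.7-like *Solyc11g072560.3*, with 3.14, 2.14 and 2.31 CPM in +N roots, against 30.2, 27.2 and 24.5 CPM in −N roots (log2 fold change −3.42, SE 0.14, edgeR adjusted p = 3.37e-11). The 3 rises included *Solyc08g007430.2*, named NIT2, with 13.6, 8.52 and 8.39 CPM in +N roots, against 0.213, 0 and 0.153 CPM in −N roots (log2 fold change 6.37, SE 0.41, edgeR adjusted p = 4.06e-09). NIT1 *Solyc08g078950.3*, the gene with most reads among them and matched to the same Arabidopsis transporter as NIT2, averaged 544 ± 15.2 CPM in +N roots and 509 ± 31.7 CPM in −N roots (SD, n = 3 each) and did not pass the test.

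Transporters of ammonium and amino acids were split, with 11 up-regulated and 8 down-regulated of 22 tested. An ammonium transporter of the AMT1 type, *Solyc04g050440.3*, averaged 304 ± 6.23 CPM in +N roots and 98.9 ± 5.82 CPM in −N roots (SD, n = 3 each, 3.08-fold), while one of the AMT2 type, *Solyc10g076480.2*, fell to 19.2 CPM in +N roots against 39.1 CPM in −N roots. All 5 genes described as GLUTAMINE DUMPER, a family that promotes amino acid export in Arabidopsis, rose. Of these *Solyc03g114620.1* had 10.4, 8.75 and 7.53 CPM in +N roots, against 0.0533, 0.231 and 0.256 CPM in −N roots (log2 fold change 5.55, SE 0.31, edgeR adjusted p = 9.07e-10), and *Solyc02g089460.1* had no count in −N roots and was at least 31.6-fold higher in +N roots taking 3 counts in the −N libraries together as the floor. WAT1-related transporters, 4 up and 7 down of 12 tested, held changes in both directions that exceeded 16-fold, *Solyc03g080070.4* with 10.2, 8.98 and 9.84 CPM in +N roots, against 0.0533, 0.0925 and 0.102 CPM in −N roots and *Solyc10g078270.2* with 0.276, 0.695 and 0.851 CPM in +N roots, against 9.92, 8.37 and 11.96 CPM in −N roots.

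Among transporters of other ions 7 of 18 rose and 6 fell. The outward potassium channel SKOR *Solyc11g011500.2*, which loads potassium into the xylem, had 348, 334 and 319.8 CPM in +N roots, against 50.9, 56.6 and 74.1 CPM in −N roots (log2 fold change 2.46, SE 0.098, edgeR adjusted p = 2.07e-11). *Solyc01g010080.3*, described as the potassium channel AKT1, averaged 405 ± 24.3 CPM in +N roots and 113 ± 9.87 CPM in −N roots (SD, n = 3 each, 3.58-fold). Potassium transporter *Solyc07g014680.4* fell, with 58.3, 49.9 and 50.1 CPM in +N roots, against 304, 273 and 223 CPM in −N roots (log2 fold change −2.34, SE 0.096, edgeR adjusted p = 3.14e-11).

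Cytokinin genes rose at the steps of synthesis, response and breakdown. Of 17 tested 12 were up-regulated and 2 down-regulated. Adenylate isopentenyltransferase 3 *Solyc09g064910.1*, the first step of synthesis and a nitrate-responsive gene in Arabidopsis, had 10.8, 10.8 and 10.998 CPM in +N roots, against 1.07, 0.370 and 0.665 CPM in −N roots (log2 fold change 3.97, SE 0.24, edgeR adjusted p = 1.79e-09). *Solyc02g085880.3*, counted among the cytochromes P450 and not here, is matched to Arabidopsis CYP735A1, which makes trans-zeatin, and had 7.45, 10.1 and 8.63 CPM in +N roots, against 0.960, 0.277 and 0.153 CPM in −N roots (log2 fold change 4.25, SE 0.34, edgeR adjusted p = 4.80e-08). The 4 response regulators described as ARR3 or ARR9, type-A regulators that cytokinin induces in Arabidopsis, rose 3.69-fold to 5.42-fold. The one with most reads, *Solyc05g006420.3*, had 106, 97.7 and 93.6 CPM in +N roots, against 23.7, 24.8 and 23.8 CPM in −N roots (log2 fold change 2.04, SE 0.063, edgeR adjusted p = 1.23e-12). All 4 cytokinin oxidase or dehydrogenase genes, which degrade the hormone, rose, *Solyc08g061920.3* to 29.9 CPM in +N roots against 5.85 CPM in −N roots. The falls were those of *Solyc04g081290.3*, described as an enzyme that activates cytokinin, and response regulator *Solyc05g014260.3*, 3.44-fold.

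Other hormone groups held changes in both directions. Gibberellin 2-oxidase 4 *Solyc07g061720.3*, which inactivates gibberellin, had 115, 92.2 and 68.9 CPM in +N roots, against 6.08, 12.7 and 12.9 CPM in −N roots (log2 fold change 3.11, SE 0.21, edgeR adjusted p = 5.26e-09), and 4 of 8 gibberellin genes tested rose and none fell. In the auxin group 11 of 30 rose and 11 fell. Of the rises 8 were small auxin up-regulated RNA (SAUR) genes, with *Solyc08g079150.1* at 4.34 against 0.130 CPM (+N, then −N), and the falls included 3 SAUR genes, 5 genes described as auxin efflux carriers and Auxin Response Factor 9B *Solyc08g008380.4*, with 115, 127 and 149 CPM in +N roots, against 475, 401 and 425 CPM in −N roots (log2 fold change −1.73, SE 0.082, edgeR adjusted p = 1.30e-10). The lowest log2 fold change of the group was that of SAUR39 *Solyc03g123550.1*, with 0.828, 0.695 and 0.668 CPM in +N roots, against 5.39, 4.90 and 4.14 CPM in −N roots (log2 fold change −2.7, SE 0.25, edgeR adjusted p = 2.18e-07). In the ethylene group 7 of 45 rose and 13 fell, from *Solyc12g013660.3*, an ethylene-responsive transcription factor at 13.6 against 0.493 CPM (+N, then −N), to Ethylene Response Factor E.4 *Solyc01g065980.4*, with 27.8, 43.5 and 36.1 CPM in +N roots, against 224, 215 and 221 CPM in −N roots (log2 fold change −2.62, SE 0.10, edgeR adjusted p = 2.21e-11).

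Transcription factors of the LBD family rose in 5 of 10 genes tested and fell in none, while NLP genes fell in 3 of 5 and rose in none. The basic leucine zipper gene *Solyc04g005170.1*, described as bZIP43, had 58.8, 54.3 and 54.8 CPM in +N roots, against 1.81, 3.24 and 2.61 CPM in −N roots (log2 fold change 4.44, SE 0.12, edgeR adjusted p = 3.91e-13). A second LOB domain-containing protein 38 gene, *Solyc02g092550.3*, had 21.8, 28.04 and 24.9 CPM in +N roots, against 1.81, 1.39 and 0.613 CPM in −N roots (log2 fold change 4.29, SE 0.21, edgeR adjusted p = 1.60e-10). In the MYB group 11 of 36 rose and 17 fell, in WRKY 7 of 18 and 6, in bHLH 9 of 28 and 8, and in NAC 2 of 15 and 5. A pair of REVEILLE genes, of a family of clock-related MYB factors, were among the rises, *Solyc02g036370.3* at 31.9 against 6.16 CPM and *Solyc03g098320.4* at 6.95 against 1.90 CPM, +N then −N. The calmodulin-like gene CML38 *Solyc11g071740.2*, a calcium sensor, had 93.3, 67.5 and 56.3 CPM in +N roots, against 3.36, 8.28 and 10.9 CPM in −N roots (log2 fold change 3.26, SE 0.24, edgeR adjusted p = 2.29e-08), in a group of calcium sensors and kinases with 4 of 17 up and 7 down.

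Ribosomes take up much of a cell's N, and proteases free N from protein. Of 22 ribosome biogenesis genes 16, all from the study's root lists, were up-regulated, the other 6 were not DEGs, and the log2 fold changes of all 22 lay between 0.40 and 1.94. Ribosome biogenesis protein WDR12 *Solyc02g088780.4* had 60.6, 56.1 and 56.9 CPM in +N roots, against 16.7, 16.5 and 15.5 CPM in −N roots (log2 fold change 1.83, SE 0.068, edgeR adjusted p = 1.03e-11), and Nucleolar protein 58 *Solyc09g083080.4*, which guides RNA modification, averaged 371 ± 14.2 CPM in +N roots and 139 ± 5.78 CPM in −N roots (SD, n = 3 each). Of 44 proteases, in a list drawn up after the values were seen, 26 fell and 7 rose. These 33 all stand in the study's root lists, and the other 11 were not DEGs. Beside the vacuolar-processing enzyme, cysteine protease CYP1 *Solyc12g088670.2* averaged 315 ± 7.08 CPM in +N roots and 1033 ± 28.5 CPM in −N roots and cysteine proteinase RD21a *Solyc04g078540.4* 213 ± 5.26 CPM in +N roots and 439 ± 20.8 CPM in −N roots (SD, n = 3 each). The rises were led by aspartyl proteases, *Solyc01g080020.2* with 112, 102 and 84.8 CPM in +N roots, against 5.07, 5.32 and 6.80 CPM in −N roots (log2 fold change 4.12, SE 0.12, edgeR adjusted p = 5.43e-13).

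Recycling of N had 10 genes up and 13 down of 34 tested. The falls included 5 purine permeases, 2 ureide permeases and allantoinase, which act in the transport and breakdown of purines and ureides. Ureide permease *Solyc01g010290.4* had 19.6, 18.8 and 16.5 CPM in +N roots, against 144, 142 and 133 CPM in −N roots (log2 fold change −2.93, SE 0.069, edgeR adjusted p = 7.50e-14). Proline dehydrogenase *Solyc02g089620.3*, which breaks proline down, averaged 11.8 ± 3.64 CPM in +N roots and 65.4 ± 5.15 CPM in −N roots (SD, n = 3 each). Asparaginase *Solyc04g078460.3*, which frees ammonium from asparagine, averaged 35.3 ± 6.07 CPM in +N roots and 142 ± 7.38 CPM in −N roots (SD, n = 3 each, 4.03-fold lower). Among the rises, glutamate decarboxylase *Solyc04g025530.3*, which makes GABA, had 23.6, 29.4 and 23.6 CPM in +N roots, against 1.17, 1.53 and 1.99 CPM in −N roots (log2 fold change 4.02, SE 0.16, edgeR adjusted p = 2.80e-11), and 6 of the other 9 were described as senescence regulators or senescence-associated. Of 4 genes described as autophagy-related, the 18a-like gene *Solyc04g076720.3* fell, to 1.41 CPM in +N roots against 3.13 CPM in −N roots, and the other 3 were not DEGs.

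Wall genes were divided by class. Extensins and extensin-like genes rose in 22 of 24 tested and fell in none, with a median log2 fold change of 1.79. Most had few reads, the one with most reads after extensin-3 being *Solyc01g097690.2* at 57.99 against 16.6 CPM (+N, then −N), and extensin-3 itself, with far more reads than the others together, was lower in +N roots. Many of the 22 lie side by side in rows of similar genes, so reads may have been split between them and their separate values are uncertain. Wall-modifying enzymes had 14 up and 22 down of 43. Pectinesterase *Solyc02g080200.4* averaged 1631 ± 227 CPM in +N roots and 364 ± 38.5 CPM in −N roots (SD, n = 3 each, 4.49-fold higher) and expansin-like *Solyc08g077910.3* 176 ± 21.1 CPM in +N roots and 26.5 ± 7.67 CPM in −N roots, whereas xyloglucan endotransglucosylase *Solyc09g008320.4* had 63.7, 56.96 and 50.4 CPM in +N roots, against 258, 234 and 199 CPM in −N roots (log2 fold change −2.01, SE 0.092, edgeR adjusted p = 9.65e-11).

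Phenylpropanoids are the source of lignin in root walls. Of 15 phenylpropanoid genes 10 were down-regulated and 1 up-regulated, and of 24 laccases, dirigent and CASP-like proteins 13 were down-regulated and 4 up-regulated. Cinnamoyl-CoA reductase 2 *Solyc03g116910.3*, at the entry to lignin monomers, had 11.1, 11.6 and 8.39 CPM in +N roots, against 167, 132 and 125 CPM in −N roots (log2 fold change −3.76, SE 0.12, edgeR adjusted p = 2.23e-12), and phenylalanine ammonia-lyase *Solyc09g007910.4*, the first step of the pathway, averaged 103 ± 37.9 CPM in +N roots and 247 ± 16.8 CPM in −N roots (SD, n = 3 each). Peroxidases had 12 up and 11 down of 30, and 12 up and 13 down with total counts, and included large falls such as *Solyc12g005790.2*, with 12.7, 15.4 and 13.6 CPM in +N roots, against 132, 123 and 108 CPM in −N roots (log2 fold change −3.12, SE 0.089, edgeR adjusted p = 5.16e-13). Cytochromes P450 fell in 34 of 47 tested and rose in 9, and glycosyltransferases fell in 32 of 50 and rose in 8. Of 6 cytochromes P450 described only outside the study's root lists, 2 rose and none fell (median log2 fold change 0.536), and of 11 such glycosyltransferases none rose and 1 fell (median −0.101). Large rises stood among these too, with glycosyltransferase *Solyc03g114175.1* at 171, 168 and 166 CPM in +N roots, against 7.84, 8.97 and 7.92 CPM in −N roots (log2 fold change 4.35, SE 0.066, edgeR adjusted p = 1.02e-15) and *Solyc07g043170.4* at 69.8, 86.4 and 101 CPM in +N roots, against 2.24, 3.01 and 1.94 CPM in −N roots.

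**Figure D5:**
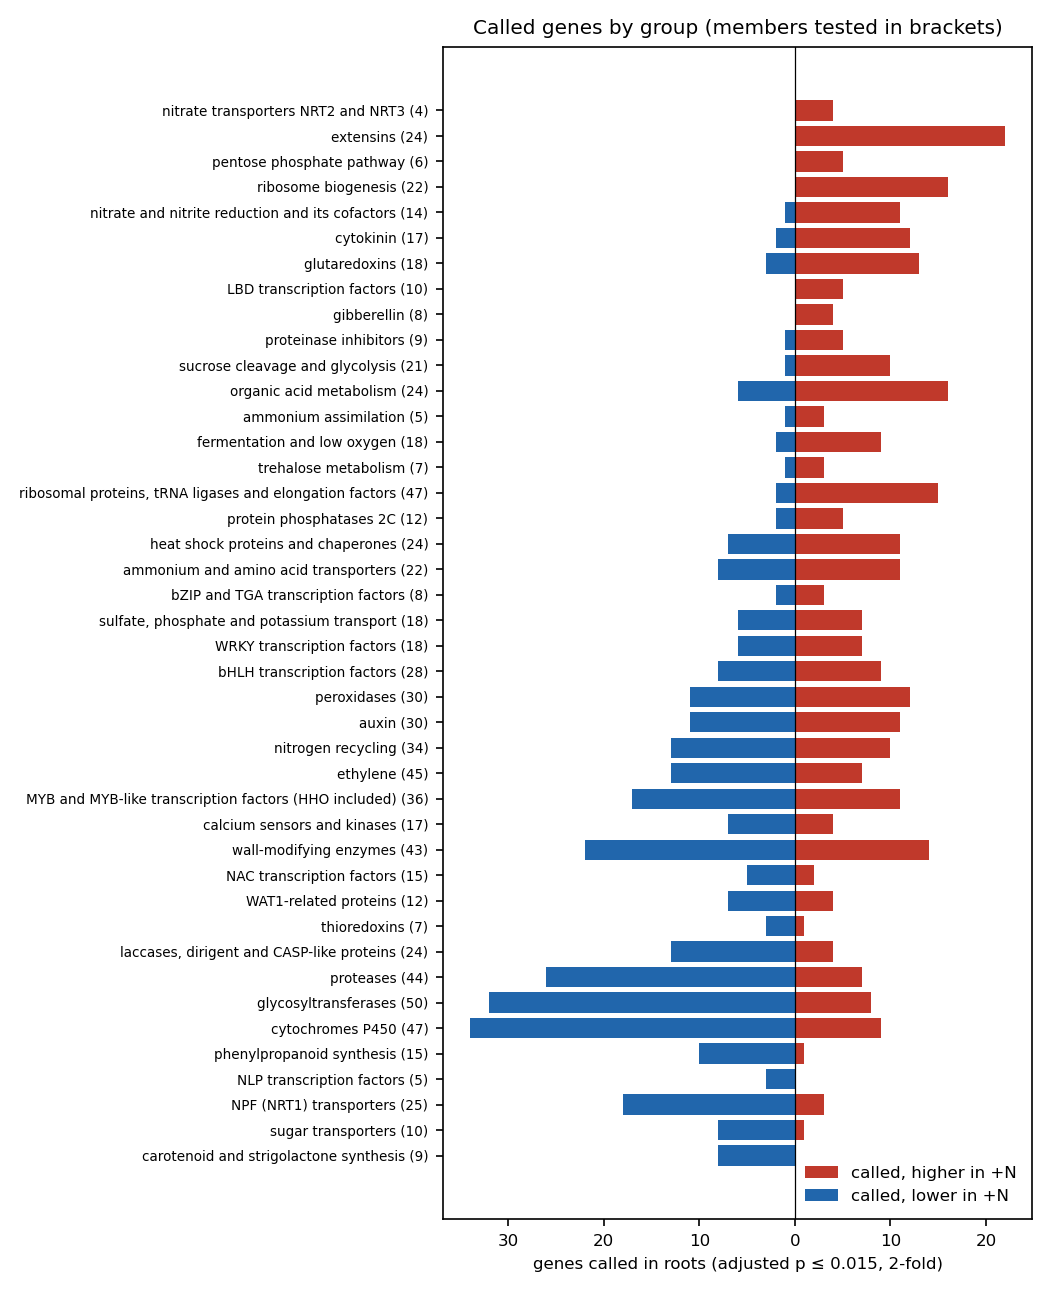
Number of called genes in each gene group, with members higher in +N roots to the right (red) and members lower in +N roots to the left (blue) of 0, ordered by the balance of the 2 relative to the members tested (in brackets). Extensins (22 up, 0 down), ribosome biogenesis (16 up, 0 down) and nitrate reduction (11 up, 1 down) lie at the top, and NPF transporters (3 up, 18 down), cytochromes P450 (9 up, 34 down) and glycosyltransferases (8 up, 32 down) towards the bottom.

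Glutaredoxins, small redox proteins some of which are nitrate-responsive in Arabidopsis, rose in 13 of 18 genes tested and fell in 3. The falls included the 2 members with most reads in −N roots, *Solyc11g069940.1* with 3.09, 3.88 and 2.31 CPM in +N roots, against 67.5, 59.8 and 56.3 CPM in −N roots (log2 fold change −4.3, SE 0.13, edgeR adjusted p = 7.02e-13) and *Solyc08g062970.1*, which averaged 15.2 ± 0.483 CPM in +N roots and 79.6 ± 7.34 CPM in −N roots (SD, n = 3 each). Summed over the group, +N roots had 97.5 to 102.6 CPM, against 186.1 to 191.3 CPM in −N roots. Of the rises, 9 lay side by side on chromosome 4, from *Solyc04g011800.1* to *Solyc04g011880.1*, and together had 911 counts in +N roots and 13 in −N roots. All 13 of the −N counts were on *Solyc04g011820.1*, and the other 8 had none. These genes are neighbours of like description, and no source used here says how shared reads were counted. Their separate values are uncertain.

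This row of 9 was the longest of 18 runs of at least 4 tested neighbours called in the same direction, 12 of them up and 6 down. A run of 6 on chromosome 7 fell, in order a cellulose synthase (*Solyc07g043390.4*), a 2-oxoglutarate-dependent dioxygenase (*Solyc07g043420.3*), a cytochrome P450 (*Solyc07g043460.3*) and 3 glycosyltransferases. Their log2 fold changes lay within −1.52 to −1.09, and the dioxygenase had 313, 314 and 306 CPM in +N roots, against 781, 769 and 632 CPM in −N roots (log2 fold change −1.23, SE 0.066, edgeR adjusted p = 5.56e-10). A run of 5 on chromosome 2 fell, with 4 purine permeases around the cation/proton antiporter *Solyc02g071070.3*, which had 25.99, 22.2 and 26.4 CPM in +N roots, against 245, 243 and 270.1 CPM in −N roots (log2 fold change −3.34, SE 0.071, edgeR adjusted p = 2.27e-14). A run of 5 on chromosome 11 rose, with glutaredoxin *Solyc11g005270.1* beside 4 RING-finger genes, of which *Solyc11g005290.1* rose 23.5-fold. A run of 5 on chromosome 1 held citrate synthase *Solyc01g073740.4* beside GTP 3′,8-cyclase *Solyc01g073730.4*, a step in making the molybdenum cofactor of nitrate reductase, which had 86.4, 89.2 and 97.6 CPM in +N roots, against 25.7, 24.2 and 28.3 CPM in −N roots (log2 fold change 1.8, SE 0.070, edgeR adjusted p = 1.58e-11).

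In 12 up-regulated genes the −N roots had no count at all, and in 6 down-regulated genes the +N roots had none. The most counts stood on *Solyc06g075970.4*, described as an aromatic acid efflux pump subunit, with 7.45, 11.1 and 10.5 CPM in the +N libraries (499 counts). Taking 3 counts in the 3 −N libraries together as the floor, +N roots had at least 192-fold more (edgeR adjusted p = 2.28e-09). The high-affinity nitrate transporter *Solyc11g069760.1* had 196 counts in +N roots and was at least 75.5-fold higher. On the other side, a chloroplastic phytoene synthase, *Solyc01g005940.4*, the first enzyme of carotenoid synthesis, had 2.35, 2.31 and 1.84 CPM in the −N libraries and was at least 37.5-fold lower in +N roots (edgeR adjusted p = 9.37e-07). Casparian strip membrane protein 1 *Solyc02g067190.4*, whose family builds the barrier of the endodermis, was at least 33.5-fold lower, and the ABC transporter *Solyc05g013890.3* at least 31.7-fold lower.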

How the data were processed

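The 6 root libraries of poly(A) RNA were taken from a table of counts that the authors deposited for the series. Its values are raw whole-number counts of reads per gene. The submitters' processing notes name cutadapt, TopHat2, HTSeq and DESeq2, without versions. The study's methods map the reads to build 4.0 of the tomato genome. How strand and reads shared by similar genes were treated is not given in the sources used here. The columns of the 6 root libraries entered the main test, and the 6 shoot libraries the test of the difference between organs, the alternative fit over 12 libraries and the check of the organ labels. The histone ChIP libraries were not used here.

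Genes were kept by edgeR's filterByExpr (minimum count 10, minimum total 15) and tested with edgeR 4.0.16 (TMM factors, quasi-likelihood F test, Benjamini-Hochberg over the 21049 genes kept, R 4.3.3). DEGs had an adjusted p of 0.015 or less and at least a 2-fold change, as in the study's methods. The SE is the log2 fold change divided by the square root of F. CPM was computed from the counts with the TMM factors. For genes with 1 to 3 counts in a group, ratios carry exact (Clopper-Pearson) 95% intervals, and for genes with none a floor of 3 counts over the group was used. Both cover counting error only. The libraries held 17472760 to 20417331 counted reads. With 3 libraries a group an exact permutation test cannot go below p = 0.1, so no single value was tested in that way. The difference between organs was tested in 1 fit of 12 libraries at an adjusted p of 0.05. On simulated counts for these 21049 genes, 200 of 200 changed genes (100 at 3-fold and 100 at 8-fold) were recovered, with 1 false call. The changed genes had a mean of at least 2 CPM, went up as often as down, and took their spread from this same fit. Recovery of genes with fewer reads, of changes near 2-fold, or with as many changed genes as in the data was therefore not measured.

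The rule for named genes took the 10 genes with most reads, the 10 largest rises and falls among DEGs of at least 5 CPM with groups that did not overlap, the 5 largest gains and losses in CPM among DEGs, the 2 largest changes each way in each gene group, genes of the longest runs of neighbours and genes with no count in a treatment. Other members were named after their values were seen. The gene groups and this rule were chosen with earlier results of these data known, and 7 further lists (sucrose cleavage and glycolysis, fermentation and low oxygen, proteases, carotenoids and strigolactones, trehalose, sugar transporters, and ribosomal proteins with tRNA ligases and elongation factors) were drawn up after the values were seen. Descriptions came from the study's gene lists, and no identifier matched the reference table. No shared effect of replicate number was seen: the correlations of deviations between same-numbered libraries were −0.0229, −0.0249 and −0.0193. With 3 libraries a group these values cannot show whether same-numbered libraries were handled together, and the main test did not pair them. Alternatives were DESeq2 1.42.0, other scalings, filters and thresholds, a fit over 12 libraries, a replicate block and leaving out each library.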

Additional observations from a re-analysis of the deposited data

Results flagged for a closer look

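Of the 20 genes with the largest changes in roots, 12 differed from shoots in their response to nitrate, by edgeR's test of the difference between organs (shoot change minus root change, log2 scale, adjusted p, 3 libraries a group). Of all 22483 genes in that fit, 10881 (48.4%) had an adjusted p of 0.05 or less. The 20 genes were chosen on the same root libraries that enter the difference, so their count is a description. For some genes not called the difference was too poorly measured to be compared. Its SE was 8461 for glycosyltransferase *Solyc03g078500.3* and 18.67 for cytochrome P450 *Solyc08g079300.3*. A gene without a call is therefore not shown to respond alike in both organs. No cause was tested.

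Most of the called differences were rises in roots with a lower value in shoots. Values in brackets are the log2 fold changes of +N over −N in each organ. The malate transporter gene *Solyc05g009580.3* differed by −10.7 (9.9 in roots, −0.82 in shoots, edgeR adjusted p = 3.22e-12). The unknown protein gene *Solyc09g072750.2* differed by −6.71 (6.86 in roots, 0.16 in shoots, edgeR adjusted p = 5.55e-12). The glucose-6-phosphate/phosphate translocator *Solyc05g045670.4* differed by −4.93 (7.04 in roots, 2.11 in shoots, edgeR adjusted p = 9.33e-13), and the C2 domain gene *Solyc04g055150.1* by −4.08 (6.54 in roots, 2.46 in shoots, edgeR adjusted p = 0.00631). LOB domain-containing protein 38 *Solyc01g107190.3* differed by −3.58 (6.805 in roots, 3.23 in shoots, edgeR adjusted p = 8.35e-11). The unknown protein gene *Solyc03g119180.1* differed by −3.08 (6.42 in roots, 3.34 in shoots, edgeR adjusted p = 1.13e-05), and nitrite reductase *Solyc01g108630.3* by −1.82 (6.57 in roots, 4.75 in shoots, edgeR adjusted p = 9.17e-10).

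In 1 gene the rise was larger in shoots: *Solyc01g108710.3*, described as an unknown protein, differed by 3.83 (6.56 in roots, 10.4 in shoots, edgeR adjusted p = 0.0237). Among the falls, the major facilitator gene *Solyc04g079510.2* differed by 10.5, with −6.49 in roots and 3.995 in shoots (edgeR adjusted p = 3.67e-05). Beta-carotene isomerase D27 *Solyc09g065750.3* differed by 6.38 (−6.08 in roots, 0.30 in shoots, edgeR adjusted p = 0.00116) and NIMIN2c *Solyc03g119590.1* by 2.60 (−4.48 in roots, −1.88 in shoots, edgeR adjusted p = 0.000588). Glutaredoxin *Solyc11g069940.1* fell in both organs and differed by 0.58 (−4.30 in roots, −3.71 in shoots, edgeR adjusted p = 0.00734).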

How the results depend on the processing

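Against a 2-fold change as the null value (edgeR's glmTreat), 688 genes rose and 552 fell, and with a limit of 1.5-fold 2860 rose and 2779 fell. Leaving out each library in turn gave 1280 to 1354 rises and 1290 to 1350 falls. The counts were 1332 and 1306 with DESeq2, 1325 and 1327 with its size factors in edgeR, and 991 and 1886 with total counts, whose split is given above. With a replicate block they were 1301 and 1315, and the block moved neither of these counts by over 1.5 times. Of 282 named genes, 211 kept their direction and call under each alternative that gave a value. The gene with many reads *Solyc01g109660.2*, no DEG, changed sign with total counts (log2 fold change −0.05027 in place of 0.11). Of the 20 genes tested for a difference from shoots, 12 were called with total counts and 12 with a replicate block, as in the main fit. Only the counts were compared, not which genes were called. The causes were not tested. Depth limits genes with few reads: under 1 CPM the median SE of a log2 fold change was 0.443, against 0.0499 at 100 CPM or more.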

Other observations

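In a list of carotenoid and strigolactone genes drawn up after the values were seen, 8 of 9 tested fell and none rose. Carotenoid Cleavage Dioxygenase 8 *Solyc08g066650.3*, which acts after D27 and CCD7 in making strigolactones, had 19.1, 17.4 and 17.7 CPM in +N roots, against 64.5, 59.5 and 53.8 CPM in −N roots (log2 fold change −1.71, SE 0.079, edgeR adjusted p = 1.05e-10). Carotenoid cleavage dioxygenase 7 *Solyc01g090660.3* averaged 1.45 ± 0.819 CPM in +N roots and 3.98 ± 0.720 CPM in −N roots (SD, n = 3 each). Zeta-carotene desaturase *Solyc01g097810.3*, an earlier step, averaged 56.4 ± 4.69 CPM in +N roots and 129 ± 6.62 CPM in −N roots (SD, n = 3 each). Carotenoid cleavage dioxygenase 1A *Solyc01g087250.3*, the other member, was lower in each +N library too but under the 2-fold limit, at 24.3 ± 2.19 CPM in +N roots and 44.6 ± 2.33 CPM in −N roots (SD, n = 3 each; log2 fold change −0.88, SE 0.077, edgeR adjusted p = 1.21e-07).

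Sugar carriers and trehalose genes, in lists of the same kind, were as follows. Of 10 sugar transporters 8 fell and 1 rose, with SWEET transporter *Solyc03g097600.3*, of a family that moves sugars across membranes in both directions, at 10.04, 10.3 and 12.3 CPM in +N roots, against 55.6, 48.7 and 49.7 CPM in −N roots (log2 fold change −2.24, SE 0.090, edgeR adjusted p = 2.24e-11). Of 7 trehalose genes 3 rose and 1 fell. Trehalose-6-phosphate synthase *Solyc05g005750.3*, which makes the sugar signal trehalose 6-phosphate, had 481, 443 and 434 CPM in +N roots, against 89.9, 91.2 and 99.8 CPM in −N roots (log2 fold change 2.27, SE 0.057, edgeR adjusted p = 1.41e-13), and the phosphatases that remove it changed in both directions, *Solyc04g072920.4* with 103, 100.2 and 99.7 CPM in +N roots, against 17.9, 19.5 and 20.5 CPM in −N roots and *Solyc05g051880.4* with 1.77, 1.56 and 1.88 CPM in +N roots, against 17.4, 18.7 and 17.02 CPM in −N roots.

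Heat shock proteins and chaperones had 11 rises and 7 falls among 24 tested. The small heat shock protein Le-HSP17.6 *Solyc03g007890.3* had 28.1, 55.97 and 31.1 CPM in +N roots, against 2.93, 2.82 and 3.53 CPM in −N roots (log2 fold change 3.63, SE 0.25, edgeR adjusted p = 7.06e-09). Among ribosomal proteins, tRNA ligases and elongation factors, a list drawn up after the values were seen, 15 of 47 rose and 2 fell. Their median log2 fold change was 0.715, against −0.0136 for all genes tested and −0.101 for the tested genes with a description. Of those described genes, 28.3% rose and 34.4% fell.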
